A study of Mus musculus with 6 samples.

Results

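Ly49 receptors are a family of C-type lectins on the surface of mouse natural killer (NK) cells, encoded by the Klra genes of the NK gene complex on chromosome 6. The members described here are Klra1, Klra3, Klra4, Klra5, Klra6, Klra7, Klra8 and Klra9, 8 of 32286 genes in the feature list and 8 of the 11 genes there whose symbol starts with Klra. They were followed as raw counts of unique molecular identifiers (UMIs, 1 for each captured transcript end) in immune cells of mouse livers. The groups were AAV-sgBaat, mice given an adeno-associated virus with a guide RNA against Baat, a bile acid conjugating enzyme of hepatocytes, then AAV-sgSCR, the same kind of virus with a control guide, and mock-infected mice. All livers were taken on day 30, and each group was 1 library from a pool of 3 tumor samples. The labels give no strain, sex or age, and they call the mock livers native in one field while the design text lists them among tumor-bearing livers. A difference from mock therefore joins virus, guide and possibly tumor, which cannot be told apart.

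Each NK cell transcribes a chance-driven subset of these genes, so a liver holds many kinds of NK cell. Klra1 (Ly49A), Klra3 (Ly49C), Klra6 (Ly49F), Klra7 (Ly49G) and Klra9 (Ly49I) encode inhibitory receptors that recruit the phosphatase SHP-1 through a tyrosine motif, mostly on binding major histocompatibility complex (MHC) class I molecules, and Klra5 (Ly49E) encodes an inhibitory receptor of fetal and some innate-like lymphocytes. Klra4 (Ly49D) and Klra8 (Ly49H) encode activating receptors that signal through the adaptor DAP12, the product of Tyrobp, and Ly49H recognises the m157 protein of mouse cytomegalovirus. Some CD8 T cells with memory features and some natural killer T (NKT) cells also carry Ly49 receptors, mainly inhibitory ones.

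The members lie in 1 cluster on the minus strand of chromosome 6 in GRCm38.p6. In coordinate order they are Klra5 (129898988 to 129913237), Klra6 (130013033 to 130026960), Klra4 (130043730 to 130067301), Klra8 (130115226 to 130129898), Klra9 (130178626 to 130194374), Klra7 (130218605 to 130233322), Klra3 (130323289 to 130337626) and Klra1 (130363918 to 130386874), with Klra10, which is not a member here, between Klra7 and Klra3. The order does not sort the members by role, but both activating genes are neighbours. RefSeq promoter sequences of this build were found for all 8. The listed start lies inside the span given above for Klra4, Klra5, Klra6 and Klra9, so these promoter stretches overlap the gene in part or, for Klra9, in whole. Over the 250 bases before the listed start Klra4 and Klra8 were the most alike of the 28 pairs (84.5% identical columns in a pairwise alignment), followed by Klra3 and Klra9 (83.6%). The remaining 26 pairs lay between 38.7% and 75.2%.

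The 4 sequences of these closest pairs are shown because the pair Klra4 and Klra8 recurs in the cells below, and Klra3 and Klra9 are the next most alike pair. Transcript ends were not compared, so reads shared between such related genes are not known here. They are printed 5′ to 3′ on the minus strand, and capitals mark the longest run of letters that both genes of a pair hold, 27 bases in Klra4 and Klra8 and 75 bases in Klra3 and Klra9.
Klra4 (chr6:130067272-130067521): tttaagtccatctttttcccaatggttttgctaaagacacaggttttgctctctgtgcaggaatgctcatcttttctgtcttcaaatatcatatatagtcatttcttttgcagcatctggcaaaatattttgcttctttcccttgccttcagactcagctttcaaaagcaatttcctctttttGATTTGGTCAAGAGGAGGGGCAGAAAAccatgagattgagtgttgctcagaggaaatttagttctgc
Klra8 (chr6:130129899-130130148): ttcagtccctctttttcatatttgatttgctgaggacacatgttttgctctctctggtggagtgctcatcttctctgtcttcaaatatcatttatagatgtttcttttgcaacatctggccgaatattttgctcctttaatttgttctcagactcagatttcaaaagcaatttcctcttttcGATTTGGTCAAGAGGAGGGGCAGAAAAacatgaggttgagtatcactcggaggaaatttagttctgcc
Klra3 (chr6:130337627-130337876): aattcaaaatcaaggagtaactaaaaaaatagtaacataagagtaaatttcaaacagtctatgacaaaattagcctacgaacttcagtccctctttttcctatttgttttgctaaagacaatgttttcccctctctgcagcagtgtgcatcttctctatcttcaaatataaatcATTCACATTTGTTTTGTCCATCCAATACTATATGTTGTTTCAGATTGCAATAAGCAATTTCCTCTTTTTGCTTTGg
Klra9 (chr6:130193113-130193362): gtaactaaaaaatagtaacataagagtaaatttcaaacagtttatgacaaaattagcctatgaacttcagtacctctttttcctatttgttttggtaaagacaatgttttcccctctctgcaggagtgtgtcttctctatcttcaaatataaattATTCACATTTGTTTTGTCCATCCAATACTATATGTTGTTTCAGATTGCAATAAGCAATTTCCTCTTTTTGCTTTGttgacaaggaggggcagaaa
Of the motifs searched on both strands, CTTTGA, the core bound by TCF factors, was found in 2 of the 8 promoters (Klra6 and Klra7) and in 14.1% of 27025 promoters of the same length. TGTGGT, a RUNX core, was in Klra1 alone (14.2% of all). TATAAA was in 5 of 8 (Klra3, Klra5, Klra6, Klra8 and Klra9, 13.0% of all), and TGACG in none (17.8% of all).

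The 3 libraries held 9386 AAV-sgBaat, 8073 AAV-sgSCR and 6431 mock barcodes. Their gene UMIs came to 48359443 in AAV-sgBaat, 62570529 in AAV-sgSCR and 32005400 in mock. Barcodes with at least 500 genes, at least 1000 gene UMIs and at most 10% mitochondrial UMIs numbered 7094 in AAV-sgBaat, 7332 in AAV-sgSCR and 6068 in mock. Over all deposited barcodes, AAV-sgBaat shared 25 with AAV-sgSCR and 10 with mock, and AAV-sgSCR shared 17 with mock. With 1 library a group no difference between groups could be tested: all intervals below are exact 95% intervals that cover counting error only. T cells and the remaining CD45hi cells were sorted separately and run together, so class sizes were not compared.

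Cells were assigned by marker UMIs. NK cells and group 1 innate lymphoid cells (ILC1, tissue-resident relatives of NK cells) had no Cd3 UMI and at least 2 of Ncr1 and Klrb1c, and were split by Eomes, Itga2 and S1pr5 against Itga1, Cxcr6, Tnfsf10 and Cd200r1. This gave 44 AAV-sgBaat, 74 AAV-sgSCR and 339 mock NK cells and 63 AAV-sgBaat, 89 AAV-sgSCR and 92 mock ILC1. A further 54 AAV-sgBaat, 51 AAV-sgSCR and 55 mock cells stayed unsplit and entered neither class. A member UMI was found in 50% of these unsplit cells for AAV-sgBaat, 39.2% for AAV-sgSCR and 76.4% for mock. In AAV-sgBaat the unsplit cells outnumbered the NK cells, so the split left out cells unevenly between the libraries. Among genes outside the gate, Tyrobp was detected in 100% of NK cells in AAV-sgBaat, 98.6% in AAV-sgSCR and 100% in mock, and Gzma in 79.5% in AAV-sgBaat, 85.1% in AAV-sgSCR and 98.5% in mock. Tyrobp did not separate these cells from ILC1, where 95.2% in AAV-sgBaat, 93.3% in AAV-sgSCR and 98.9% in mock had it. Gzma was found in 28.6% of ILC1 in AAV-sgBaat, 31.5% in AAV-sgSCR and 50% in mock. The CD8 T class held 507 AAV-sgBaat, 1392 AAV-sgSCR and 477 mock cells. The NKT class (Cd3 with at least 2 UMIs of Klrb1c and Zbtb16, without Cd8a, Cd8b1 or Trdc) held 29 cells in AAV-sgBaat, 69 in AAV-sgSCR and 326 in mock. Zbtb16, the defining transcription factor of NKT cells, was detected in only 10.3% of its cells in AAV-sgBaat, 27.5% in AAV-sgSCR and 39.9% in mock. Klrb1c was detected in 100% in AAV-sgBaat, 89.9% in AAV-sgSCR and 91.7% in mock, so these are Klrb1c-positive T cells and are called the NKT class by their rule.

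The summed level of the 8 genes followed the same order of classes in every library: NK cells, NKT cells, ILC1, then CD8 T cells. NK cells had 2515 AAV-sgBaat, 2182 AAV-sgSCR and 3353 mock UMIs per 1000000 gene UMIs (CPM). The NKT class had 601 CPM in AAV-sgBaat, 562 in AAV-sgSCR and 331 in mock, ILC1 had 223 CPM in AAV-sgBaat, 186 in AAV-sgSCR and 181 in mock, and CD8 T cells had 116 CPM in AAV-sgBaat, 74.2 in AAV-sgSCR and 43.8 in mock. No neighbouring classes in this order had overlapping counting intervals within a library. Gamma-delta T cells had 163 CPM in AAV-sgBaat, 173 in AAV-sgSCR and 496 in mock, which overlapped ILC1 in both virus-infected groups and lay above the NKT class in mock.

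Cells that should lack these receptors set the background. B cells had 4.64 AAV-sgBaat, 5.57 AAV-sgSCR and 24.2 mock CPM, with a member UMI in 1.46% of cells in AAV-sgBaat, 2.61% in AAV-sgSCR and 2.71% in mock at median depths of 2240 UMIs in AAV-sgBaat, 2969 in AAV-sgSCR and 3463 in mock. CD4 T cells had 2.62 CPM in AAV-sgBaat, 3.22 in AAV-sgSCR and 7.74 in mock, and neutrophils had 1.98 CPM in AAV-sgBaat against 1.33 in AAV-sgSCR. At least 1 member UMI was found in 81.8% of NK cells in AAV-sgBaat, 83.8% in AAV-sgSCR and 96.5% in mock (median 3010 UMIs in AAV-sgBaat, 3711 in AAV-sgSCR and 3802 in mock), in 55.2% of the NKT class in AAV-sgBaat, 39.1% in AAV-sgSCR and 32.8% in mock, in 15.9% of ILC1 in AAV-sgBaat, 13.5% in AAV-sgSCR and 18.5% in mock and in 19.7% of CD8 T cells in AAV-sgBaat, 15.0% in AAV-sgSCR and 7.34% in mock (median 4071 UMIs in AAV-sgBaat, 5114 in AAV-sgSCR and 6002 in mock). All of these shares were above the B cell share of the same library.

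**Figure D1:**
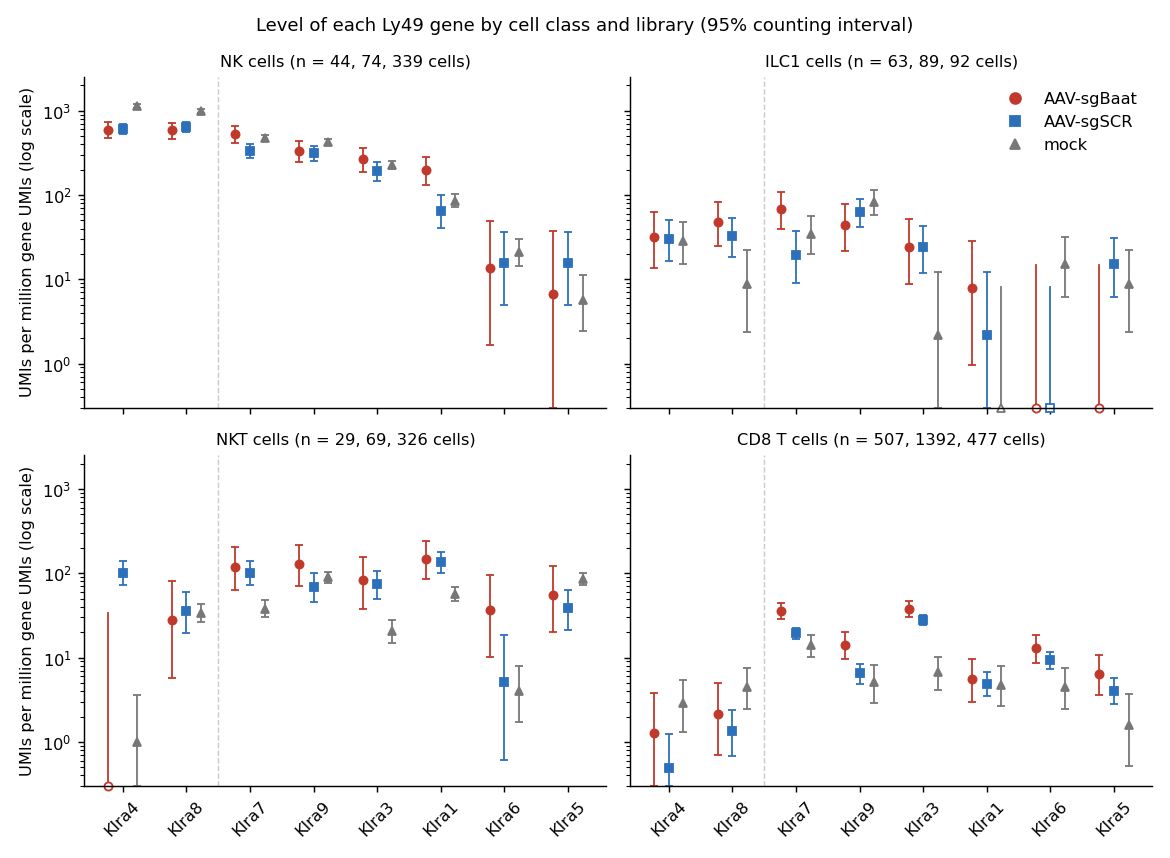
Level of each Ly49 gene in 4 cell classes, in CPM on a log axis, with AAV-sgBaat, AAV-sgSCR and mock side by side; bars are 95% counting intervals, open symbols on the axis are genes at 0, and the dashed line separates the activating genes Klra4 and Klra8 from the inhibitory ones. Klra4 and Klra8 reach 583 to 1129 CPM in NK cells and lie under 5 CPM in CD8 T cells.

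In NK cells the activating genes were lower in both virus-infected groups than in mock, and the inhibitory genes were not lowered as a group in AAV-sgBaat. Klra4 had 590 CPM in AAV-sgBaat, 607 in AAV-sgSCR and 1129 in mock. Klra8 had 583 CPM in AAV-sgBaat, 641 in AAV-sgSCR and 985 in mock. For both genes the virus-infected groups lay together and below mock, with no overlap of the counting intervals. The log2 ratio of Klra4 was -0.94 (-1.27 to -0.62) for AAV-sgBaat over mock and -0.90 (-1.12 to -0.68) for AAV-sgSCR over mock, and that of Klra8 was -0.76 (-1.09 to -0.44) for AAV-sgBaat over mock and -0.62 (-0.84 to -0.41) for AAV-sgSCR over mock. Over all genes with at least 20 UMIs in NK cells the median log2 ratio was also below 0, at -0.24 in each comparison, so both genes lay below a shifted middle. ILC1 and maturation genes were also counted in these NK cells. Of all genes, 3.57% were at least 2-fold higher than mock in AAV-sgBaat and 21.7% lower. In AAV-sgSCR 2.89% of all genes were higher and 14.7% lower. Of 12 ILC1 genes, 2 of 4 counted were 2-fold higher than mock and 1 lower in AAV-sgBaat (median 1.01). In AAV-sgSCR 4 of 6 ILC1 genes were higher and 0 lower (median 1.22). Of 10 NK maturation genes, 0 of 9 counted were 2-fold higher and 4 lower in AAV-sgBaat (median -0.88), and 2 of 10 were higher and 3 lower in AAV-sgSCR (median -0.22). The summed level of the 8 ILC1 genes that the gates did not use was 1349 CPM in AAV-sgBaat, 848 in AAV-sgSCR and 831 in mock. That of the 9 maturation genes outside the gates was 1078 CPM in AAV-sgBaat, 1402 in AAV-sgSCR and 1388 in mock. In both sums AAV-sgSCR was close to mock. The part of these genes in the Ly49 result was not tested.

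The inhibitory members of NK cells varied gene by gene. Klra7 had 529 CPM in AAV-sgBaat, 336 in AAV-sgSCR and 476 in mock, and Klra9 had 332 CPM in AAV-sgBaat, 311 in AAV-sgSCR and 421 in mock. Klra3 had 264 CPM in AAV-sgBaat, 191 in AAV-sgSCR and 229 in mock, with overlapping intervals in the 3 libraries. Klra1 had 197 CPM in AAV-sgBaat, 64.7 in AAV-sgSCR and 86.0 in mock, and AAV-sgBaat stood apart from both. Its log2 ratio was 1.60 (0.74 to 2.49) over AAV-sgSCR and 1.19 (0.55 to 1.79) over mock, but the 29 AAV-sgBaat UMIs came from 7 cells, 9 of them from 1 cell. Klra6 (13.6 CPM in AAV-sgBaat, 15.4 in AAV-sgSCR and 21.2 in mock) and Klra5 (6.78 CPM in AAV-sgBaat, 15.4 in AAV-sgSCR and 5.64 in mock) were scarce in NK cells and had overlapping intervals.

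Summed over the inhibitory genes, AAV-sgBaat NK cells had 1342 CPM, AAV-sgSCR 934 and mock 1238. AAV-sgBaat lay above AAV-sgSCR by a log2 ratio of 0.52 (0.26 to 0.79), while the interval against mock spanned 0 (0.12, -0.10 to 0.33). AAV-sgSCR lay below mock by a log2 ratio of -0.41 (-0.59 to -0.23). The activating genes together had 1173 CPM in AAV-sgBaat, 1248 in AAV-sgSCR and 2114 in mock. They made up 46.6% of the members' UMIs in AAV-sgBaat, 57.2% in AAV-sgSCR and 63.1% in mock. The intervals did not overlap (41.5 to 51.9 in AAV-sgBaat, 53.5 to 60.9 in AAV-sgSCR and 61.7 to 64.4 in mock). UMIs of 1 cell are not independent, so these intervals are too narrow for a statement about cells.

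All 8 members together differed little between the virus-infected groups in NK cells: the log2 ratio of AAV-sgBaat over AAV-sgSCR was 0.21 (0.02 to 0.39), and it was -0.01 when barcodes with markers of other lineages were kept. Against mock it was -0.41 (-0.57 to -0.26) for AAV-sgBaat and -0.62 (-0.74 to -0.51) for AAV-sgSCR. Of the members that had 20 or more UMIs in the 2 libraries compared, 1 of 6 (Klra1) was at least 2-fold higher in AAV-sgBaat than AAV-sgSCR, where 2.89% of all 3014 such genes were, and none was 2-fold lower (5.61% of all). Against mock, 1 of 7 (Klra1 again) was 2-fold higher in AAV-sgBaat (3.57% of all 6774 genes) and none lower (21.7%). In AAV-sgSCR against mock, 0 of 7 were 2-fold higher (2.89% of 7060 genes) and none lower (14.7%).

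**Figure D2:**
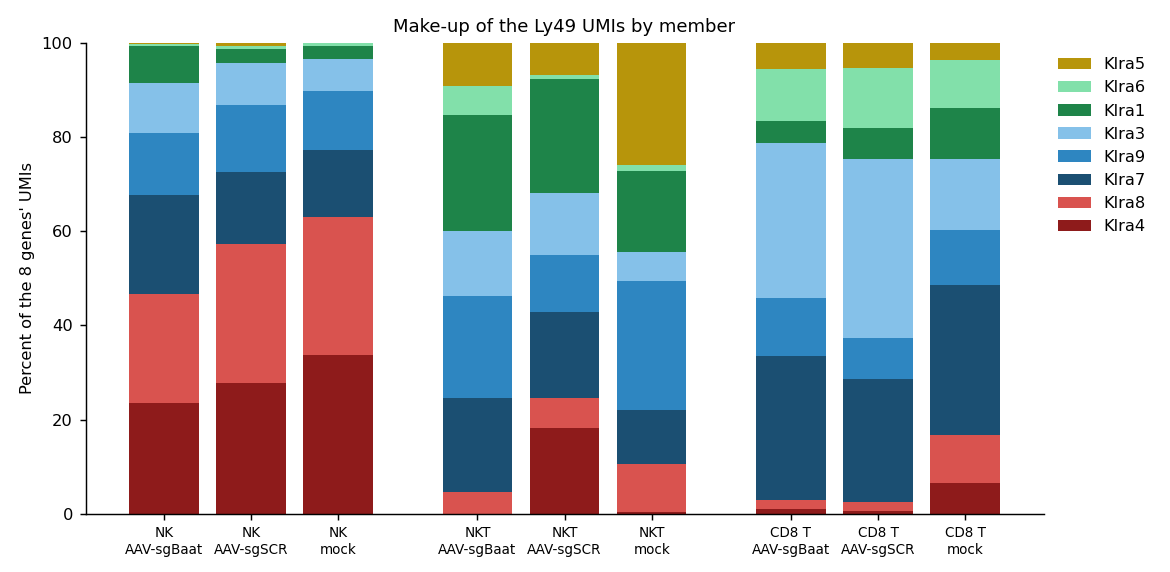
Make-up of the Ly49 UMIs, in percent of the 8 genes' UMIs, in NK cells, the NKT class and CD8 T cells of AAV-sgBaat, AAV-sgSCR and mock; each colour is a member, with the activating genes Klra4 and Klra8 in red at the bottom. The red part covers 46.6% in AAV-sgBaat, 57.2% in AAV-sgSCR and 63.1% in mock in NK cells and 2.95% in AAV-sgBaat, 2.48% in AAV-sgSCR and 16.7% in mock in CD8 T cells.

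NK cells usually held several members at once. With each cell thinned to 2000 UMIs, which kept 41 AAV-sgBaat, 69 AAV-sgSCR and 332 mock cells and left out 3 in AAV-sgBaat, 5 in AAV-sgSCR and 7 in mock, the mean number of members detected per cell was 1.88 in AAV-sgBaat, 1.84 in AAV-sgSCR and 2.40 in mock. Unthinned it was 2.16 in AAV-sgBaat, 2.15 in AAV-sgSCR and 2.82 in mock. At 2000 UMIs no member was found in 19.5% of NK cells in AAV-sgBaat, 18.8% in AAV-sgSCR and 6.33% in mock, and 4 or more in 7.32% in AAV-sgBaat, 8.70% in AAV-sgSCR and 16.0% in mock. Mock NK cells thus had the highest mean at equal depth, and the 2 virus-infected groups were close to each other. The interval of the mean in mock (2.24 to 2.58) overlapped that of AAV-sgBaat (1.48 to 2.35) but not that of AAV-sgSCR (1.53 to 2.19).

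Cells that joined both roles were fewer in the virus-infected groups. An activating and an inhibitory member were found together in 39.0% (24.2 to 55.5) of NK cells in AAV-sgBaat, 46.4% (34.3 to 58.8) in AAV-sgSCR and 67.5% (62.1 to 72.5) in mock. Any activating member was found in 48.8% of cells in AAV-sgBaat, 59.4% in AAV-sgSCR and 77.7% in mock, and any inhibitory member in 70.7% in AAV-sgBaat, 68.1% in AAV-sgSCR and 83.4% in mock. Cells with inhibitory members alone made up 31.7% (18.1 to 48.1) in AAV-sgBaat, 21.7% (12.7 to 33.3) in AAV-sgSCR and 16.0% (12.2 to 20.4) in mock.

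**Figure D3:**
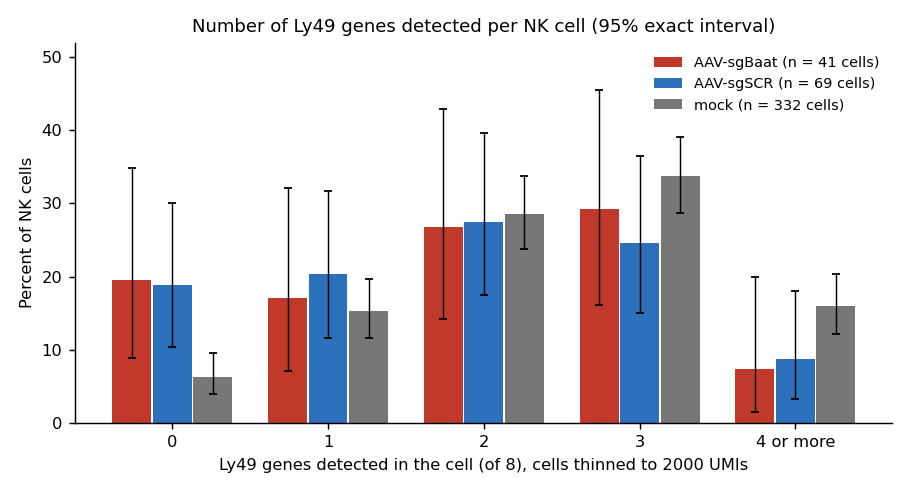
Number of the 8 Ly49 genes detected in each NK cell after thinning to 2000 UMIs, in percent of NK cells of AAV-sgBaat, AAV-sgSCR and mock, with exact 95% intervals. Cells with no member make up 19.5% of NK cells in AAV-sgBaat, 18.8% in AAV-sgSCR and 6.33% in mock, and the interval of AAV-sgBaat overlaps that of mock while the interval of AAV-sgSCR does not.

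The members were combined in many ways. At 2000 UMIs there were 17 different combinations of 2 or more members in 41 AAV-sgBaat cells, 24 in 69 AAV-sgSCR cells and 52 in 332 mock cells. The most frequent in mock was Klra4, Klra7 and Klra8 together, in 23 cells (6.93%), followed by Klra4, Klra8 and Klra9 in 22 (6.63%) and Klra4 with Klra8 in 21 (6.33%). In AAV-sgBaat the first of these was found in 3 cells (7.32%), and in AAV-sgSCR Klra4 with Klra8 was found in 4 (5.80%). At this depth no combination with a member exceeded 7.32% of a library's NK cells, and unthinned Klra4, Klra7 and Klra8 together reached 9.09% in AAV-sgBaat and 8.26% in mock.

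Most pairs of members shared NK cells about as often as the product of their single shares. Among pairs with at least 5 cells by that product, the ratio of found to product had a median of 1.196 over 3 pairs in AAV-sgBaat, 1.15 over 10 in AAV-sgSCR and 1.02 over 17 in mock. The activating pair Klra4 and Klra8 lay above it in every library, with 11 cells against 5.85 in AAV-sgBaat, 15 against 11.1 in AAV-sgSCR and 129 against 113 in mock. These are the neighbouring genes with the most alike promoters shown above, and a link between promoter and shared cells was not tested. Among pairs of this size they had the highest ratio in AAV-sgBaat (1.88). In AAV-sgSCR and mock other pairs were higher, up to 1.48 in AAV-sgSCR and 1.22 in mock. Klra4 and Klra9 lay below the product, with 3 cells against 4.39 in AAV-sgBaat, 5 against 6.96 in AAV-sgSCR and 74 against 81.7 in mock, but without thinning AAV-sgSCR had 12 cells against 11.7.

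Klra1 and Klra3 shared fewer cells in mock than any other pair of this size: 1 mock cell held both against 7.59 by the product (0.301% of cells found, 0.00763 to 1.67, against 2.29% by the product), and without thinning 4 held both against 10.8. In AAV-sgBaat the same pair was found in 2 cells against 1.76, and in AAV-sgSCR in 0 against 0.913, too few to tell. Klra7 and Klra9 lay above the product in AAV-sgBaat (8 against 4.68) and AAV-sgSCR (10 against 6.96) and below it in mock (51 against 60.3). Cells of a library share their source, so these counts describe 3 libraries and were not tested.

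**Figure D4:**
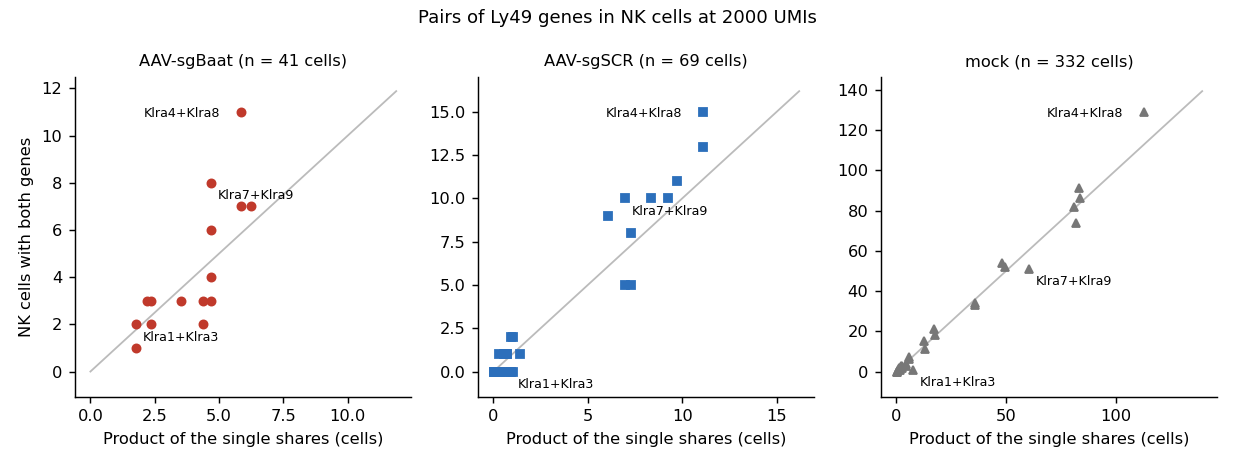
NK cells with both genes of a pair (vertical axis) against the number given by the product of the single shares (horizontal axis), for all pairs of Ly49 genes in AAV-sgBaat, AAV-sgSCR and mock at 2000 UMIs per cell; the grey line marks equality. Klra4 with Klra8 lies above the line in all 3 libraries, and Klra1 with Klra3 lies at 1 cell against 7.59 in mock.

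ILC1 had few members. Klra9, for the inhibitory Ly49I, was found in the most ILC1 of mock, with 43.7 CPM in 5 AAV-sgBaat cells, 62.9 CPM in 6 AAV-sgSCR cells and 82.9 CPM in 10 mock cells. Klra7 had 67.6 CPM in AAV-sgBaat, 19.5 in AAV-sgSCR and 34.9 in mock. The AAV-sgBaat value rests on 17 UMIs in 5 cells, 10 of them in 1 cell, and its log2 ratio over AAV-sgSCR was 1.79 (0.55 to 3.14). It was the member of 4 counted that was at least 2-fold higher, where 2.4% of all 4287 genes were, and none was 2-fold lower (5.04%). Against mock none of 3 counted members passed 2-fold, in AAV-sgBaat (2.59% of 4594 genes higher, 13.8% lower) or in AAV-sgSCR (2.46% of 5355 higher, 9.34% lower).

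The activating genes in ILC1 came from isolated cells. All 14 Klra4 UMIs of AAV-sgSCR and all 13 of mock were in 1 cell each, and the 8 of AAV-sgBaat were in 2 cells. Klra8 had 47.7 CPM in AAV-sgBaat, 32.5 in AAV-sgSCR and 8.72 in mock, from 3 cells in each virus-infected group and 1 mock cell, and Klra3 had 6 UMIs in AAV-sgBaat, 11 in AAV-sgSCR and 1 in mock. Klra1, Klra5 and Klra6 had between 0 and 7 UMIs in every library. The summed level did not differ beyond counting error: the log2 ratio was 0.26 (-0.26 to 0.76) for AAV-sgBaat over AAV-sgSCR, 0.30 (-0.22 to 0.80) for AAV-sgBaat over mock and 0.04 (-0.41 to 0.50) for AAV-sgSCR over mock. With NK cells and ILC1 split by Eomes alone against Itga1 and Cd200r1, the ratio was 0.97 for AAV-sgBaat over AAV-sgSCR and 1.25 for AAV-sgBaat over mock. Within a library the NK cell level was 11.3 times the ILC1 level in AAV-sgBaat, 11.7 times in AAV-sgSCR and 18.5 times in mock.

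The NKT class carried mostly inhibitory members, and several were higher in the virus-infected groups. Klra1 had 148 CPM in AAV-sgBaat, 135 in AAV-sgSCR and 56.8 in mock. Klra7 had 120 CPM in AAV-sgBaat, 102 in AAV-sgSCR and 38.2 in mock, and Klra3 had 83.2 CPM in AAV-sgBaat, 74.0 in AAV-sgSCR and 20.6 in mock. In all 3 genes both virus-infected groups lay above mock with no overlap of the counting intervals of the CPM. The AAV-sgBaat values came from 4 cells for Klra1, 6 for Klra7 and 3 for Klra3. Those of AAV-sgSCR came from 12 cells for Klra1, 11 for Klra7 and 6 for Klra3. By share of cells with the gene, both virus-infected groups overlapped mock in all 3 genes. For Klra3 the shares were 10.3% (2.19 to 27.4) in AAV-sgBaat, 8.70% (3.26 to 18.0) in AAV-sgSCR and 6.13% (3.79 to 9.32) in mock. Klra9 had 129 CPM in AAV-sgBaat, 68.9 in AAV-sgSCR and 90.4 in mock and did not separate the groups.

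Klra5 went the other way in the NKT class. It had 55.5 CPM in AAV-sgBaat, 38.3 in AAV-sgSCR and 85.9 in mock, with a log2 ratio of -1.17 (-2.03 to -0.40) for AAV-sgSCR over mock and an interval spanning 0 for AAV-sgBaat (-0.63, -2.10 to 0.52). In mock, Klra5 made 5.64 CPM in NK cells against its 85.9 CPM in the NKT class, a log2 ratio of NK over NKT of -3.93 (-5.16 to -2.92). The other 7 members were higher in NK cells than in the NKT class of mock, but in AAV-sgSCR Klra1 was lower in NK cells (-1.06, -1.87 to -0.31). Mock gamma-delta T cells were also rich in Klra5, with 163 CPM of Klra5, 159 of Klra9 and 116 of Klra7. In AAV-sgSCR gamma-delta T cells Klra5 had 13.7 CPM, Klra9 10.5 and Klra7 62.0, and in AAV-sgBaat Klra5 had 53.1 and Klra7 38.9 with no UMI of Klra9.

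The activating genes were uneven in the NKT class. Klra4 had 40 UMIs in 4 AAV-sgSCR cells, 21 of them in 1 cell, against 2 UMIs in 326 mock cells and 0 in 29 AAV-sgBaat cells. When 3 counts stand for 0, AAV-sgSCR was 3.68-fold higher than AAV-sgBaat. This is not a lower bound: the log2 ratio of AAV-sgBaat over AAV-sgSCR had an upper interval limit of -1.51. By share of cells with Klra4 the intervals overlapped, at 0 to 11.9% for AAV-sgBaat against 1.60 to 14.2% for AAV-sgSCR. Klra8 had 27.7 CPM in AAV-sgBaat, 35.7 in AAV-sgSCR and 33.7 in mock, with overlapping intervals. Klra6 had 4 UMIs in AAV-sgBaat, 2 in AAV-sgSCR and 8 in mock.

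Summed over the members, the NKT class had a log2 ratio of 0.86 (0.47 to 1.23) for AAV-sgBaat over mock, 0.76 (0.54 to 0.99) for AAV-sgSCR over mock and 0.10 (-0.32 to 0.50) for AAV-sgBaat over AAV-sgSCR. The last value ran from -0.50 to 0.81 with other limits on mitochondrial and identity UMIs. At least 2-fold higher than mock were 3 of 6 counted members in AAV-sgBaat (Klra1, Klra3 and Klra7), where 5.8% of all 7563 genes were, and 4 of 7 in AAV-sgSCR (with Klra4 added), where 3.47% of 7870 were. At least 2-fold lower than mock were 0 of 6 in AAV-sgBaat (23.7% of all) and 1 of 7, Klra5, in AAV-sgSCR (10.3%). Between the virus-infected groups 0 of 6 were 2-fold higher (2.91%) and 1 of 6, Klra4, lower (9.68%). Of the 65 AAV-sgBaat UMIs 21 came from 1 cell, and without the top cell of each library the ratio over mock was 0.41, and 0.28 with at most 5% mitochondrial UMIs, both with intervals that reached below 0. Detection of some NK-associated genes ran the same way. Fcer1g was found in 65.5% in AAV-sgBaat, 62.3% in AAV-sgSCR and 37.1% in mock. Tyrobp was found in 48.3% of the class in AAV-sgBaat, 49.3% in AAV-sgSCR and 34.7% in mock, and Eomes was also lowest in mock. Others did not: Ncr1 was found in 27.6% in AAV-sgBaat, 34.8% in AAV-sgSCR and 27.6% in mock. Gzma was found in 27.6% in AAV-sgBaat, 36.2% in AAV-sgSCR and 30.4% in mock, and Tbx21 was highest in mock (42.3%). Their part in the result was not tested.

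CD8 T cells carried the members in other proportions than NK cells, with Klra3 and Klra7 ahead in both virus-infected groups. Levels of different genes are set side by side as 3′ end counts, which were not scaled by length. Klra3 had 38.2 CPM in AAV-sgBaat, 28.2 in AAV-sgSCR and 6.67 in mock, and Klra7 had 35.6 CPM in AAV-sgBaat, 19.4 in AAV-sgSCR and 14.0 in mock. Klra6 had 12.9 CPM in AAV-sgBaat, 9.32 in AAV-sgSCR and 4.45 in mock. Of the members' UMIs in CD8 T cells these 3 genes made up 74.5% in AAV-sgBaat, 76.7% in AAV-sgSCR and 57.2% in mock. In NK cells they made up 32.1% in AAV-sgBaat, 24.9% in AAV-sgSCR and 21.6% in mock. The Klra3 intervals of both virus-infected groups lay above that of mock.

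Activating members were nearly missing from CD8 T cells. Klra4 had 3 UMIs in 507 AAV-sgBaat cells, 4 in 1392 AAV-sgSCR cells and 9 in 477 mock cells, and Klra8 had 5 in AAV-sgBaat, 11 in AAV-sgSCR and 14 in mock. Of the members' UMIs they made up 2.95% in AAV-sgBaat, 2.48% in AAV-sgSCR and 16.7% in mock. Genes of NK cells did not all run with the mock share in this class. Ncr1 had 2.57 CPM in AAV-sgBaat, 4.29 in AAV-sgSCR and 17.8 in mock. S1pr5 had 1.72 CPM in AAV-sgBaat, 0.490 in AAV-sgSCR and 9.53 in mock, and Eomes and Itga2 were also highest in mock. Tyrobp (49.9 CPM), Fcer1g (56.5 CPM), Gzma (557 CPM) and Tbx21 were instead lowest in mock, and Klrb1c was highest in AAV-sgSCR (42.4 CPM). Their part in the result was not tested. The log2 ratio of Klra4 in NK cells over CD8 T cells was 8.84 (7.25 to 11.1) in AAV-sgBaat, 10.3 (8.89 to 12.2) in AAV-sgSCR and 8.63 (7.70 to 9.76) in mock, and that of Klra8 was 8.09 (6.81 to 9.75) in AAV-sgBaat, 8.89 (8.02 to 9.92) in AAV-sgSCR and 7.79 (7.04 to 8.67) in mock. In mock the CD8 T cell levels were 2.86 CPM of Klra4 and 4.45 of Klra8. They were below those of B cells, 6.16 CPM of Klra4 and 5.98 of Klra8. They were above those of CD4 T cells, 1.66 CPM of each gene, with overlapping intervals. By share of cells, mock CD8 T cells lay above B cells, with overlapping intervals. The shares were 1.048% against 0.555% for Klra4 and 1.468% against 0.867% for Klra8. Whether these levels are background thus depends on the class and measure compared, and was not tested. Klra6 differed far less between the classes, by 1.054 times in AAV-sgBaat (log2 0.08, -3.03 to 2.05), 1.65 times in AAV-sgSCR (0.73, -0.94 to 2.01) and 4.76 times in mock (2.25, 1.29 to 3.28). The NK cell values of Klra6 rest on 2 UMIs in 1 cell in AAV-sgBaat and 5 UMIs in 3 cells in AAV-sgSCR.

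All 3 comparisons of the summed level in CD8 T cells lay above 0. The log2 ratio was 0.65 (0.44 to 0.86) for AAV-sgBaat over AAV-sgSCR, 1.41 (1.11 to 1.71) for AAV-sgBaat over mock and 0.76 (0.49 to 1.04) for AAV-sgSCR over mock. Of the members with 20 or more UMIs Klra3 differed most from mock, at 2.52 (1.82 to 3.28) in AAV-sgBaat, with 2.08 (1.43 to 2.80) in AAV-sgSCR. Between the virus-infected groups Klra9 (14.2 CPM in AAV-sgBaat, 6.50 in AAV-sgSCR and 5.08 in mock) differed by 1.12 (0.45 to 1.78), Klra7 by 0.88 (0.48 to 1.27) and Klra3 by 0.44 (0.07 to 0.80).

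Klra5 had 6.43 CPM in AAV-sgBaat, 4.05 in AAV-sgSCR and 1.59 in mock, and Klra1 had 5.57 CPM in AAV-sgBaat, 4.90 in AAV-sgSCR and 4.76 in mock. The intervals of Klra1 overlapped in the 3 libraries. At least 2-fold higher than mock were 5 of 6 counted members in AAV-sgBaat (all but Klra1), where 6.65% of all 9259 genes were, and 3 of 7 in AAV-sgSCR (Klra3, Klra5 and Klra6), where 11.9% of 10676 were. At least 2-fold lower than mock were 0 of 6 in AAV-sgBaat (4.98%) and 1 of 7, Klra8, in AAV-sgSCR (4.22%). In AAV-sgBaat against AAV-sgSCR 1 of 6, Klra9, was 2-fold higher (1.53% of 10582 genes) and none lower (5.63%). The members' median log2 ratio was 0.57 for AAV-sgBaat over AAV-sgSCR (-0.07 over all genes), 1.505 for AAV-sgBaat over mock (0.03) and 0.47 for AAV-sgSCR over mock (0.14).

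The 3 libraries differed in their mix of CD8 T cells. CD90 (Thy1) has the allelic forms CD90.1 and CD90.2, each read by its own antibody tag, and the labels do not say which cells bear which. Of CD8 T cells with at least 100 tag UMIs, 204 AAV-sgBaat, 803 AAV-sgSCR and 11 mock cells had more CD90.1, and 289 in AAV-sgBaat, 574 in AAV-sgSCR and 463 in mock had more CD90.2. The members were concentrated in the CD90.1 cells of AAV-sgBaat. Summed, CD90.1 cells had 244 CPM in AAV-sgBaat against 92.7 in AAV-sgSCR, and CD90.2 cells had 36.7 CPM in AAV-sgBaat, 50.6 in AAV-sgSCR and 44.7 in mock. The 11 mock CD90.1 cells held 0 member UMIs, with an upper limit of 81.7 CPM, too few cells for a comparison.

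Among CD90.1 cells, AAV-sgBaat was higher than AAV-sgSCR by a log2 ratio of 1.40 (1.16 to 1.64), with a member UMI in 39.7% of AAV-sgBaat against 20.05% of AAV-sgSCR cells at median depths of 3879 UMIs in AAV-sgBaat, against 4983 in AAV-sgSCR. Klra3 had 92.5 CPM in AAV-sgBaat against 41.9 in AAV-sgSCR. Klra7 had 71.3 CPM in AAV-sgBaat against 22.4 in AAV-sgSCR, and Klra9 had 30.1 in AAV-sgBaat against 8.97 in AAV-sgSCR. AAV-sgBaat was thus more than 2-fold higher in each of these genes. Klra5 had 16.7 CPM in AAV-sgBaat against 5.13 in AAV-sgSCR, and Klra1 had 14.5 in AAV-sgBaat against 2.99 in AAV-sgSCR, each from 4 to 8 cells. Klra6, at 16.7 CPM in AAV-sgBaat against 8.97 in AAV-sgSCR, had an interval that reached 0 (0.90, -0.06 to 1.78). Klra4 had no UMI in AAV-sgBaat and 3 in AAV-sgSCR.

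CD90.2 cells ran the other way. There the summed log2 ratio of AAV-sgBaat over AAV-sgSCR was -0.46 (-0.94 to -0.0014), that of AAV-sgBaat over mock was -0.28 (-0.78 to 0.19) and that of AAV-sgSCR over mock was 0.18 (-0.16 to 0.51). A member UMI was found in 6.23% of cells in AAV-sgBaat, 8.36% in AAV-sgSCR and 7.56% in mock. Klra3 had 3.603 CPM in AAV-sgBaat, 10.1 in AAV-sgSCR and 6.81 in mock, and Klra7 had 13.7 CPM in AAV-sgBaat, 15.7 in AAV-sgSCR and 14.3 in mock. Klra6 was the member that stayed higher than mock in both virus-infected groups, with 10.8 CPM in AAV-sgBaat, 10.1 in AAV-sgSCR and 4.54 in mock and log2 ratios of 1.25 (0.10 to 2.41) for AAV-sgBaat and 1.15 (0.21 to 2.16) for AAV-sgSCR.

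Within a library, CD90.1 cells exceeded CD90.2 cells by a log2 ratio of 2.73 (2.29 to 3.20) in AAV-sgBaat, against 0.87 (0.62 to 1.14) in AAV-sgSCR. Klra3 showed the widest gap of the members with UMIs on both sides, at 4.68 (3.40 to 6.34) in AAV-sgBaat, with 2.06 (1.53 to 2.63) in AAV-sgSCR. Klra9 followed at 2.80 (1.49 to 4.37) in AAV-sgBaat, with 1.46 (0.48 to 2.57) in AAV-sgSCR. Klra6 did not separate the tags, at 0.63 (-0.50 to 1.76) in AAV-sgBaat, with -0.16 (-0.85 to 0.53) in AAV-sgSCR. Klra1 was lower in the CD90.1 cells of AAV-sgSCR (-1.36, -2.41 to -0.37), whereas in AAV-sgBaat all 13 of its UMIs were in CD90.1 cells.

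**Figure D5:**
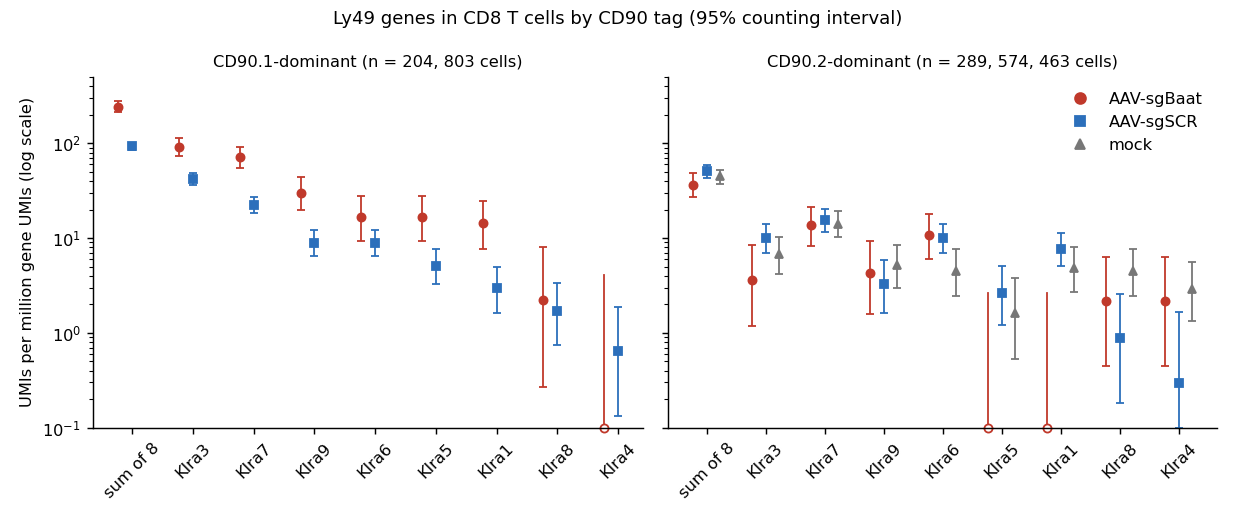
Ly49 genes in CD8 T cells with more CD90.1 tag (left, AAV-sgBaat and AAV-sgSCR, since mock has 11 such cells) and with more CD90.2 tag (right, AAV-sgBaat, AAV-sgSCR and mock), in CPM on a log axis with 95% counting intervals; open symbols on the axis are genes at 0. The sum of the 8 genes is 244 CPM in AAV-sgBaat against 92.7 CPM in AAV-sgSCR on the left, and 36.7 CPM in AAV-sgBaat, 50.6 in AAV-sgSCR and 44.7 in mock on the right.

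The members were found almost only in CD8 T cells with Ccl5, a chemokine gene of effector and memory T cells. Cells without a Ccl5 UMI (81 AAV-sgBaat, 167 AAV-sgSCR and 238 mock cells) held 6 member UMIs in AAV-sgBaat, 2 in AAV-sgSCR and 0 in mock. Among cells with at least 2 Ccl5 UMIs (400 cells in AAV-sgBaat, 1131 in AAV-sgSCR and 211 in mock) the summed level was 147 CPM in AAV-sgBaat, 90.5 in AAV-sgSCR and 88.9 in mock. AAV-sgSCR and mock were thus level within these cells (log2 0.02), while AAV-sgBaat lay above mock by 0.73. When the tag was taken into account too, CD90.1 cells with Ccl5 had 285 CPM in AAV-sgBaat against 115 in AAV-sgSCR. CD90.2 cells with Ccl5 had 45.7 CPM in AAV-sgBaat, 60.0 in AAV-sgSCR and 92.2 in mock, and AAV-sgBaat lay below mock by a log2 ratio of -1.01 (-1.53 to -0.52) and AAV-sgSCR by -0.62 (-0.96 to -0.28). In these cells Klra6 had log2 ratios over mock of 0.10 for AAV-sgBaat and 0.35 for AAV-sgSCR, with intervals that spanned 0.

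Most CD8 T cells held no member, and those with any mostly held 1: unthinned, 15.8% held 1 member in AAV-sgBaat, 11.7% in AAV-sgSCR and 3.98% in mock, out of 19.7% in AAV-sgBaat, 15.0% in AAV-sgSCR and 7.34% in mock with any. Klra3 alone was found in 32 AAV-sgBaat, 68 AAV-sgSCR and 4 mock cells, Klra7 alone in 18 in AAV-sgBaat, 37 in AAV-sgSCR and 4 in mock, and Klra9 alone in 14 in AAV-sgBaat, 20 in AAV-sgSCR and 3 in mock. Klra6 and Klra7 shared cells more often than the product of their shares, in 5 cells against 1.07 in AAV-sgBaat, 15 against 1.90 in AAV-sgSCR and 8 against 0.346 in mock. Klra3 and Klra7 did so less clearly, in 3 against 2.43 in AAV-sgBaat, 6 against 4.16 in AAV-sgSCR and 1 against 0.220 in mock. With cells thinned to 2000 UMIs no member was found in 85.9% of CD8 T cells in AAV-sgBaat, 91.3% in AAV-sgSCR and 95.6% in mock, which kept the order of the unthinned shares.

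CD8 T cells with a member UMI were set beside those with none in each library (100 against 407 cells in AAV-sgBaat, 209 against 1183 in AAV-sgSCR and 35 against 442 in mock, with medians of 4523 against 3989 UMIs in AAV-sgBaat, 5502 against 5040 in AAV-sgSCR and 7083 against 5922 in mock). At least 2-fold higher in all 3 libraries were 0.0837% of 7170 genes, 6 in all, and 0.126% were 2-fold lower. They included 4 genes of the lists, each with a known place in NK cells: Tyrobp (the DAP12 adaptor), Fcer1g (another adaptor of activating receptors), Klre1 (a lectin of the NK gene complex) and Gzma (granzyme A). Tyrobp had 290 CPM in AAV-sgBaat cells with a member and 76.0 in those with none, 136 and 61.7 in AAV-sgSCR, and 344 and 18.6 in mock. Fcer1g had log2 ratios of 2.47 in AAV-sgBaat, 1.19 in AAV-sgSCR and 4.93 in mock, Klre1 of 1.94 in AAV-sgBaat, 1.62 in AAV-sgSCR and 3.12 in mock, and Gzma of 2.71 in AAV-sgBaat, 1.23 in AAV-sgSCR and 1.61 in mock.

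The lists were also described whole, counting any ratio above or below 0 in all 3 libraries, where 17.5% of the 7170 genes were higher and 13.7% lower. Of 13 counted adaptor and signalling genes 5 were higher in all 3 libraries beside a member and 1 lower. Of 15 genes of Ly49-positive and virtual memory CD8 T cells 8 were higher and 1 lower, among them Ikzf2 (Helios), with log2 ratios of 0.74 in AAV-sgBaat, 1.1 in AAV-sgSCR and 0.78 in mock. The cytotoxic list had 8 of 11 higher and 1 lower, and the other lectin genes had 7 of 8 higher and 0 lower, with Klrd1 (CD94) at 0.73 in AAV-sgBaat, 0.60 in AAV-sgSCR and 0.88 in mock. Of 13 transcription factors 3 were higher and 2 lower, and the lower ones were Tcf7 (-1.85 in AAV-sgBaat, -0.57 in AAV-sgSCR and -0.64 in mock) and Lef1 (-2.27 in AAV-sgBaat, -0.66 in AAV-sgSCR and -1.05 in mock), factors of naive and memory T cells. The MHC class I list (6 counted) had none in either direction, and the maturation and ILC1 lists had 1 of 5 and 3 of 7 higher and 1 and 2 lower. Cells with more UMIs are more likely to show a member, and depth differed as given.

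NK cells with at least 2 members were set beside those with none (30 against 8 cells in AAV-sgBaat, 50 against 12 in AAV-sgSCR and 290 against 12 in mock). Of 835 genes counted 0.24% were at least 2-fold higher in all 3 libraries and 0.12% lower. By list, 6 of 8 counted cytotoxic genes and 6 of 10 of the Ly49-positive and virtual memory list were higher by any ratio in all 3 libraries and none lower, where 17.1% of the 835 genes were higher and 17.7% lower. Zeb2, a transcription factor of terminal NK maturation, was the 1 gene at least 2-fold higher in all 3 libraries among 5 transcription factors counted, with 224 CPM against 35.7 in AAV-sgBaat, 308 against 29.2 in AAV-sgSCR and 492 against 127 in mock. Its log2 ratios were 2.65 (0.02 to 8.01) in AAV-sgBaat, 3.40 (1.48 to 6.48) in AAV-sgSCR and 1.95 (1.01 to 3.08) in mock. The cells without a member held 1 Zeb2 UMI in AAV-sgBaat, 2 in AAV-sgSCR and 9 in mock. Ltb (lymphotoxin beta), an ILC1 list gene, was lower beside members, at -1.32 in AAV-sgBaat, -0.74 in AAV-sgSCR and -2.30 in mock, and Prf1 (perforin) was higher, at 0.62 (-0.32 to 1.69) in AAV-sgBaat, 2.18 in AAV-sgSCR and 1.54 in mock.

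Zeb2 and Ltb also differed from mock in the NK cells of both virus-infected groups. Zeb2 had 190 CPM in AAV-sgBaat, 222 in AAV-sgSCR and 464 in mock, with log2 ratios over mock of -1.29 (-1.89 to -0.74) for AAV-sgBaat and -1.06 (-1.44 to -0.71) for AAV-sgSCR. Ltb had 346 CPM in AAV-sgBaat, 302 in AAV-sgSCR and 115 in mock, higher than mock by 1.59 (1.11 to 2.05) in AAV-sgBaat, with 1.39 (1.02 to 1.76) in AAV-sgSCR. Ets1, a factor needed for NK development, had log2 ratios over mock of -0.89 for AAV-sgBaat and -0.98 for AAV-sgSCR, and Ly6c2, a maturation gene, of -1.16 for AAV-sgBaat and -1.36 for AAV-sgSCR. Of 13 counted transcription factors 0 were 2-fold higher and 3 lower in each virus-infected group against mock, where 21.7% of all genes were lower in AAV-sgBaat and 14.7% in AAV-sgSCR, so the AAV-sgBaat share was near that of all genes. The adaptor and signalling list, by contrast, had 0 of 15 higher and 1 lower in AAV-sgBaat and 1 and 1 of 15 in AAV-sgSCR, with medians of -0.15 and -0.32 beside -0.24 over all genes.

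The cytotoxic list had 1 of 10 counted genes 2-fold higher and 4 lower in AAV-sgBaat against mock (21.7% of all genes lower), and 0 higher and 3 lower in AAV-sgSCR (14.7%). Ccl4, a chemokine gene of activated NK cells, had 1485 CPM in AAV-sgBaat, 616 in AAV-sgSCR and 3030 in mock. Ccl4 was also among the genes that were higher in AAV-sgBaat than AAV-sgSCR (1.27, 0.99 to 1.55), as was Xcl1 (1.26, 0.90 to 1.63), a chemokine that attracts dendritic cells. The MHC class I list, the ligand side, had 0 of 6 past 2-fold in any of the 3 comparisons, with medians of -0.07, -0.18 and -0.03 for AAV-sgBaat over AAV-sgSCR, AAV-sgBaat over mock and AAV-sgSCR over mock.

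In CD8 T cells the 4 genes named beside the members were also higher in the virus-infected groups than in mock. Tyrobp had 122 CPM in AAV-sgBaat, 74.4 in AAV-sgSCR and 49.9 in mock, and Fcer1g had 259 CPM in AAV-sgBaat, 234 in AAV-sgSCR and 56.5 in mock. Klre1 had 102 CPM in AAV-sgBaat, 74.2 in AAV-sgSCR and 40.3 in mock. Between AAV-sgBaat and AAV-sgSCR, Tyrobp differed by a log2 ratio of 0.72 (0.51 to 0.92), Klre1 by 0.47 (0.24 to 0.68) and Fcer1g by 0.15 (0.01 to 0.28). Gzma had 1340 CPM in AAV-sgBaat, 1517 in AAV-sgSCR and 557 in mock, and was thus lower in AAV-sgBaat than AAV-sgSCR (-0.18, -0.24 to -0.12). Lectin genes did not all follow: Klrc2 (NKG2C) and Klrb1c (NK1.1) were lower in AAV-sgBaat, at -1.13 (-1.44 to -0.83) and -1.20 (-1.70 to -0.74), and the other lectin list had 1 of 12 genes 2-fold higher and 3 lower. Lef1 and Tcf7 were higher in AAV-sgBaat than AAV-sgSCR (1.24 and 0.92), although both were lower in the cells that held a member, and both were lower than in mock (AAV-sgBaat over mock, Lef1 -1.29 and Tcf7 -1.20).

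Over the 12 class and library sums, the genes whose log2(CPM + 1) followed the summed members most closely by Pearson correlation were Prag1 (0.92) and Cdkn2d (0.92), a cell cycle inhibitor, then Sp110 (0.89), Arf1 (0.89), Tspo (0.88), Cyba (0.88), Sap30l (0.88), Nrarp (0.88), Ctla2a (0.88) and Lrrfip2 (0.88), among 8848 genes. The 12 points share 4 classes and 3 libraries, so these values describe the order of the classes and carry no test. Nrarp, a target of Notch signalling, had 33.9 CPM in AAV-sgBaat, 43.1 in AAV-sgSCR and 71.9 in mock NK cells.

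The other 3 Klra genes in the feature list were not members. Klra17 (Ly49Q), a receptor of myeloid and plasmacytoid dendritic cells, had 50.1 CPM in AAV-sgBaat, 42.6 in AAV-sgSCR and 133 in mock plasmacytoid dendritic cells and 0 UMIs in AAV-sgBaat, 0 in AAV-sgSCR and 4 in mock in NK cells. Klra2 (Ly49B) had 54.3 CPM in AAV-sgBaat against 52.02 in AAV-sgSCR neutrophils and no UMI in NK cells. Klra10, like the members, was found mainly in NK cells, with 12 UMIs in 12 mock NK cells and none in NK cells of the virus-infected groups.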

How the data were processed

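The deposited files hold raw UMI counts per gene and barcode of 3 libraries of a 10x Genomics 3′ assay, made with Cell Ranger 6.0.1 per the file headers and aligned to mm10 per the submitters' processing notes. Antibody tag counts came from the same deposited matrices. Of the 6 samples listed, the 3 tag samples have no file used here, and 0 columns of other samples were present. The labels name Hashtag 2 where the matrices name F4/80, a tag not used here.

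Barcodes were filtered at 500 genes, 1000 gene UMIs and 10% mitochondrial UMIs. Those with marker UMIs of B cells, macrophages, neutrophils, basophils or plasmacytoid dendritic cells were left out of the 4 classes (61.9% of filtered barcodes in AAV-sgBaat, 57.4% in AAV-sgSCR and 59.9% in mock), which removes those cells and many doublets together. No doublet caller was run. UMIs were summed per class and library, and a call means a 2-fold ratio with at least 20 UMIs. Intervals are exact at 95% (Poisson for CPM, Clopper-Pearson for shares, conditional binomial for ratios). UMIs are 3′ ends and were not scaled by length. The ratio intervals and the thinning were tested on simulated counts. These counts were drawn independently, without the clustering of UMIs within cells. The gates, pairs and tag subsets were not tested in this way. Genes named outside the members came from the lists and from the ranking by correlation. The members and lists were chosen with earlier results of these data known. Python 3.11.15, numpy 2.4.6, scipy 1.17.1, pandas 2.3.3 and biopython 1.88 were used.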

Additional observations from a re-analysis of the deposited data

Results flagged for a closer look

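The summed Ly49 level ran in opposite directions in different cell classes under the same comparison. For AAV-sgBaat over mock the log2 ratio was 0.86 in the NKT class and 1.41 in CD8 T cells, against -0.41 in NK cells. For AAV-sgSCR over mock it was 0.76 in the NKT class and 0.76 in CD8 T cells, against -0.62 in NK cells. The difference between the classes was not tested, since each group is 1 library.

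Within CD8 T cells the comparison of AAV-sgBaat over AAV-sgSCR also changed direction with the antibody tag. The log2 ratio was 1.40 in cells with more CD90.1 and -0.46 (-0.94 to -0.0014) in cells with more CD90.2, and this difference was not tested either. The second interval barely excluded 0. Among cells with more CD90.2 and at least 2 Ccl5 UMIs the ratio was -0.39, with an interval that spanned 0 (-0.90 to 0.09).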

How the results depend on the processing

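Over 15 results, 136 alternative values were computed: 111 stayed within the counting interval of the value reported, 22 moved outside it and 3 turned round, meaning that a value whose interval had excluded 0 changed sign. A further 9 values changed sign where the reported interval already spanned 0. No paired analysis was possible because each group is 1 library, and there was no replicate to leave out. The following are log2 ratios of the summed level, and the cause of each shift was not tested.

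With barcodes carrying markers of other lineages kept, AAV-sgBaat over AAV-sgSCR in NK cells turned round to -0.0125, AAV-sgBaat over mock was -0.63 in NK cells and 1.102 in CD8 T cells, and AAV-sgSCR over mock was 0.39 in the NKT class and 0.41 in CD8 T cells. With NK cells and ILC1 split by Eomes against Itga1 and Cd200r1, NK cells had -0.58 for AAV-sgBaat and -0.87 for AAV-sgSCR over mock, and ILC1 had 0.97 for AAV-sgBaat over AAV-sgSCR and 1.25 for AAV-sgBaat over mock. Without the barcodes in the top 5% of UMIs, ILC1 had 0.83 for AAV-sgBaat and 0.57 for AAV-sgSCR over mock. In the NKT class, 3 identity UMIs gave 0.81 for AAV-sgBaat over AAV-sgSCR and 0.32 for AAV-sgSCR over mock. A limit of 5% mitochondrial UMIs gave -0.50 for AAV-sgBaat over AAV-sgSCR and 0.28 for AAV-sgBaat over mock. Thinning to 2000 UMIs gave 0.62 for AAV-sgBaat over AAV-sgSCR and 0.26 for AAV-sgSCR over mock. Without thinning, mock NK cells had a mean of 2.82 members.

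The remaining alternatives were chosen after seeing the data. Without the top Ly49 cell of each library, AAV-sgBaat over mock in the NKT class was 0.41. Among CD8 T cells with at least 2 Ccl5 UMIs, AAV-sgBaat over mock was 0.73 and AAV-sgSCR over mock 0.0246. Among those with more CD90.2, AAV-sgBaat turned round to -0.46 over AAV-sgSCR and -0.28 over mock, with 0.18 for AAV-sgSCR over mock. Among those with more CD90.1, AAV-sgBaat over AAV-sgSCR was 1.40. The small NK, ILC1 and NKT classes of the virus-infected groups limit all values that rest on them.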
